A study of Mus musculus with 16 samples.

Results

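The granins and the enzymes that process prohormones were followed in the mouse hippocampus over 16 Affymetrix Mouse Genome 430 2.0 arrays, by every probe set that the platform annotation gives to the gene symbols Chga, Chgb, Scg2, Scg3, Scg5, Vgf, Pcsk1, Pcsk2, Cpe and Pcsk1n. Of these 10 genes, 9 had a probe set in the annotation used here, and Pcsk2 was not analysed. They held 10 of the 45101 probe sets on the array. A filter on low intensities kept 27044 probe sets for testing, 9 of them of these genes. The probe set that did not pass was a second one of Cpe, with intensities between 3.94 and 90.2, so each of the 9 genes was tested with 1 probe set.

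Granins are acidic secretory proteins that aggregate with calcium in the trans-Golgi network and help to form dense-core vesicles, the organelles that store neuropeptides and some neurotrophins. Inside these vesicles the prohormone convertases cut precursor proteins at pairs of basic residues, carboxypeptidase E trims the basic residues that remain, and small chaperone or inhibitor proteins hold the convertases in check. Several of these genes have long been used as examples of genes that respond to cAMP and to neuronal activity through CREB, a transcription factor that binds the cAMP response element.

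Each array measured RNA pooled from the hippocampi of 3 to 4 mice of 1 age, sex and genotype, so a replicate was a pool. Of the 6 groups, 1 held VP16-CREB mice (genotype tetO-VP16-CREB C57BL/6J, 3 pools, age 6 weeks) raised on doxycycline (dox), which had been withdrawn for 3 weeks, and their control littermates (WT, 3 pools) had the same dox schedule. Another held VP16-CREB mice aged 3 weeks after 1 week off dox (2 pools), with control littermates treated alike (WT, 2 pools). The last pair was A-CREB mice (genotype TetO-A-CREB-95 C57BL6 F1/J, 3 pools, age 6 weeks), raised without dox, and their control littermates (WT, 3 pools), also without dox. The strain of all groups was given as C57BL/6J. VP16-CREB is CREB joined to a viral activation domain, so that it activates transcription without upstream signalling, and A-CREB is a dominant negative partner that binds CREB and so prevents its binding to DNA. The design text calls the VP16-CREB mice at 1 week bitransgenic. The line that drives the tetO transgenes, and with it the cells that express them, is not given in the sources used here. Time off dox and age changed together between the VP16-CREB groups, so they cannot be told apart. The p-values rest on the spread between pools within groups, estimated over all 6 groups together. Nothing in the labels says whether pools came from separate litters, so whether this covers the spread between litters is unknown.

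Promoters are shown for the 4 genes on which the site that CREB binds is most complete, among the genes with a promoter sequence here. Vgf and Cpe had no such sequence and were not searched. The test results were also known and entered this choice. At the longer time off dox, 2 of the 4 rose (Chga and Pcsk1) and 2 did not pass the test (Chgb and Scg2). This split is thus part of the choice and says nothing about the effect of the motifs. The sequences are from RefSeq (GRCm38.p6), from 120 bases before the annotated start to the last base before it, 5′ to 3′ on the strand of the gene. Capitals mark TGACGTCA (the full cAMP response element, the same on both strands), the variant TGACGTA, and TGACG (the half-site), and each longer motif holds the half-site.
Chga (chr12:102554821-102554940, plus strand): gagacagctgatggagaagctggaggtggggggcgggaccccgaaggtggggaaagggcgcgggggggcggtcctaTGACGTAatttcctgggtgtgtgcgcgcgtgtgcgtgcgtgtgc
Chgb (chr2:132781522-132781641, plus strand): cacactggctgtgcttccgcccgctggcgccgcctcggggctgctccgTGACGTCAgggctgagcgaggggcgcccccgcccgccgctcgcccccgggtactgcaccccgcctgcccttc
Scg2 (chr1:79440027-79440146, minus strand): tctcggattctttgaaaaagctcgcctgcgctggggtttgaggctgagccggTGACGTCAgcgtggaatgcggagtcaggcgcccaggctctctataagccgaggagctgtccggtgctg
Pcsk1 (chr13:75089737-75089856, plus strand): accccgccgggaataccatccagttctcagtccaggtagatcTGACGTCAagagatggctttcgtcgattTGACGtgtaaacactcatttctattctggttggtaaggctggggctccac

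The promoter table had 8 of the 10 genes, and Vgf and Cpe were not in it. Windows of 300 bases, from 250 before to 50 after the start, were searched on both strands. The full site TGACGTCA lay in 3 of the 8 windows, at -72 to -65 in Chgb, -68 to -61 in Scg2 and -78 to -71 in Pcsk1, where a position counts bases from the start and -1 is the last base before it. It was in 588 of all 32851 windows (1.79%). Chga held TGACGTA at -44 to -38, a motif found in 418 windows (1.27%). The half-site TGACG was in 6837 windows (20.8%). It lay at -30 to -26 in Scg3, at -50 to -46 in Pcsk1 beside the full site, and on the minus strand at -34 to -30 in Pcsk2. In Scg5 it lay at -175 to -171, 20 to 24 and, on the minus strand, 41 to 45. Pcsk1n held none of these letters in its window. A match is a run of letters and not a measured binding site.

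**Figure D1:**
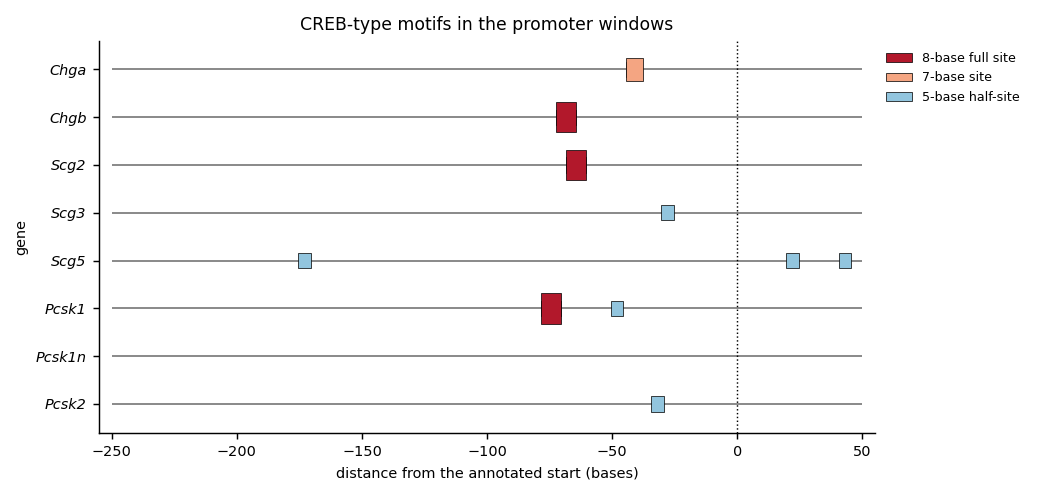
Positions of the 3 motifs in the promoter windows of 8 genes. The x axis is the distance from the annotated start in bases, the y axis the gene, and boxes are motif matches on either strand, with a half-site inside a longer motif hidden by it. The 8-base full site stands between -78 and -61 in Chgb, Scg2 and Pcsk1, and the 7-base site at -44 in Chga.

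The transgene was read in the VP16-CREB pools by Creb1 probe sets. The most raised of them had intensities of 1140, 1097 and 1266 in the VP16-CREB pools at 3 weeks off dox, against 67.3, 32.2 and 61.2 in their littermates. At 1 week it had 735 and 991 in the VP16-CREB pools, against 5.38 and 36.4 in their littermates. In A-CREB pools this probe set differed by -0.40 on the log2 scale (limma adjusted p = 1). The other Creb1 probe set called in VP16-CREB differed by 0.81 in A-CREB pools (95% interval 0.04 to 1.59, unadjusted p = 0.0408, limma adjusted p = 1), so no Creb1 probe set passed the test there. The remaining Creb1 probe sets differed by -0.12, -0.22 and 0.14 in VP16-CREB at 3 weeks and were not called. At 1 week they differed by 0.19, -0.16 and -0.19, also without a call. Those at -0.12 and -0.22 were brighter, with mean log2 values of 10.89 and 9.96 against 6.99 for the most raised probe set. All arrays had a trimmed mean of 500. Median intensities of 118.9 to 129.3 in the cohort 3 weeks off dox stood above those of the other cohorts, 75.0 to 93.2, so transgenic pools were set against their own littermates. The actin ratio of 3′ to 5′ probe sets, which rises as RNA degrades, spanned 1.36 to 1.61 there, and 1.37 to 2.48 on the remaining arrays. The first pools of both A-CREB groups had Xist at 63.4 (A-CREB) and 34.5 (control), against 3611 to 6231 on the other 14 arrays. The second control pool of the A-CREB cohort stood apart in pituitary hormone transcripts, and the second A-CREB pool less so, as given with those results.

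At 3 weeks off dox, VP16-CREB hippocampus had more Chga, Vgf and Pcsk1 transcript than its littermates, by 1.89, 1.88 and 2.41 times. In each of these genes all 3 transgenic pools lay above all 3 control pools. No member was called lower. Differences are log2(intensity + 10) of transgenic minus littermate pools, tested with limma over all 27044 probe sets with Benjamini-Hochberg adjustment, and calls were made below an adjusted p of 0.05. By that rule 3 of the 9 tested members were higher and 0 lower, where 3.28% of all tested probe sets were higher and 0.651% lower (3.93% in either direction). The median log2 difference of the 9 was 0.20, and that of all tested probe sets was -0.01.

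Chga encodes chromogranin A, the founding granin and the precursor of peptides such as vasostatin and catestatin. Its intensity was 2222, 1969 and 2159 in the VP16-CREB pools, against 964, 1223 and 1165 in the littermates. All 3 transgenic pools stood well above the highest control pool. The log2 difference was 0.92 ± 0.17 (SE, 95% interval 0.56 to 1.29, limma adjusted p = 0.00599).

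Vgf encodes a neurotrophin-inducible secretory protein that is cut into several neuropeptides. Its intensity was 4587, 3825 and 4662 in the VP16-CREB pools, against 2371, 2542 and 2038 in the littermates, and the groups did not overlap. The log2 difference was 0.91 ± 0.20 (SE, 95% interval 0.47 to 1.35, limma adjusted p = 0.0209).

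Pcsk1 encodes prohormone convertase 1/3, which makes the first cuts in many precursors. Its intensity was 272, 282 and 320 in the VP16-CREB pools, against 140, 83.7 and 129 in the littermates. These littermate values lay around the overall median of 99.1 used by the filter, so the fold starts from low intensities. Pcsk1 was the dimmest tested member, at a mean log2 value of 7.49 over the 16 arrays, with Chga next at 10.29. The lowest transgenic pool was nearly double the highest control pool. The log2 difference was 1.27 ± 0.27 (SE, 95% interval 0.68 to 1.86, limma adjusted p = 0.0174).

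The call on Chga held in all 18 alternative settings, with log2 differences of 0.82 to 0.99. That on Pcsk1 was lost in 4 of the 18 (limma adjusted p up to 0.163), of which 3 left out a single array. These arrays were the second control pool (log2 difference 1.06, adjusted p = 0.0908), the second VP16-CREB pool (1.29, 0.0577) and the third (1.20, 0.0863). The call on Vgf was lost in 7 of the 18 (limma adjusted p up to 0.124), of which 4 left out a single array. These arrays were the first control pool (0.93, 0.0671), the third (0.82, 0.0986), the first VP16-CREB pool (0.87, 0.0729) and the third (0.86, 0.103). The log2 differences stayed above 0.8 in every one of these.

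**Figure D2:**
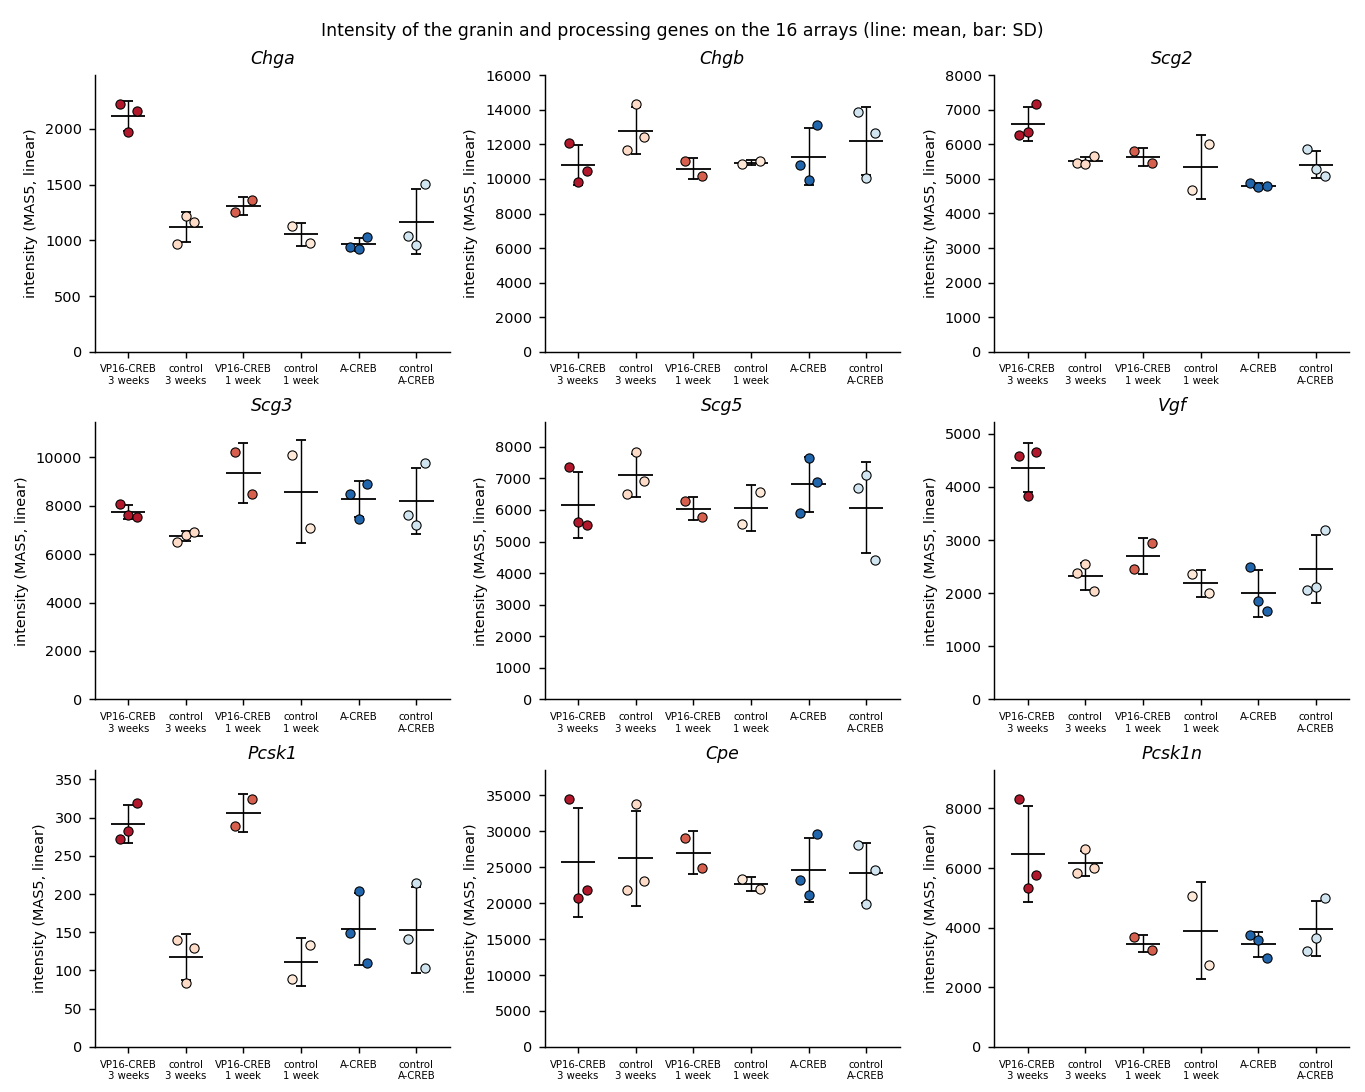
Intensity (MAS5, linear scale from 0) of the 9 tested genes on the 16 arrays. Each point is a pool, horizontal lines are group means and vertical bars the SD, with each transgenic group left of its own littermates. For Chga, Vgf and Pcsk1 the VP16-CREB pools at 3 weeks lie above all their littermates, and for Chgb, Cpe, Scg5 and Pcsk1n those 2 groups overlap.

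Secretogranin 2, encoded by Scg2, is the precursor of secretoneurin. It had 6259, 6362 and 7159 in the VP16-CREB pools at 3 weeks, against 5445, 5424 and 5659 in the littermates. The groups did not overlap, yet the log2 difference was 0.26 (95% interval -0.02 to 0.53) and did not pass the test (limma adjusted p = 0.431). Secretogranin 3, encoded by Scg3, binds chromogranin A and cholesterol-rich vesicle membrane. It had 8081, 7624 and 7549 in the VP16-CREB pools, against 6508, 6777 and 6929 in the littermates, without overlap and at a log2 difference of 0.20 (95% interval -0.15 to 0.55, limma adjusted p = 0.722). So 5 of the 9 tested members had transgenic pools wholly above their littermates, where 14.9% of all tested probe sets did, and 0 had them wholly below, where 12.8% did.

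The other members did not pass the test at 3 weeks. Chgb encodes chromogranin B, a granin stored together with chromogranin A. It averaged 10800 ± 1170 in the VP16-CREB pools, against 12800 ± 1380 in the littermates (SD, n = 3 each), a log2 difference of -0.24 (95% interval -0.59 to 0.10). Scg5 encodes 7B2, the chaperone of prohormone convertase 2, and differed by -0.21 (-0.63 to 0.21). Cpe encodes carboxypeptidase E and differed by -0.04 (-0.54 to 0.45). Pcsk1n encodes proSAAS, an inhibitor of prohormone convertase 1/3, and differed by 0.05 (-0.47 to 0.56). With 3 pools a group, changes within these intervals remain compatible with the data, so none of these genes is shown to be unchanged.

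Other cell types also differed between these groups, in the same RNA. Microglial markers were higher in the VP16-CREB pools for 10 of 11 genes, with a summed intensity of 50210 to 59320 against 12600 to 13210 in the littermates. Dentate granule cell markers were lower for 7 of 8, with sums of 4987 to 6242 against 12700 to 12800. Of 7 pyramidal cell markers 1 was lower (Nptx1), at a median log2 difference of -0.62, and their sums were 16660 to 17610 in the VP16-CREB pools and 24650 to 25300 in the littermates, without overlap. Astrocyte markers were higher for 3 of 8, and the sums of all 8 were 57160 to 70120 against 40520 to 48220. Of 10 interneuron markers, only Slc32a1 and Npy were called, both higher, and the sums of all 10 were 40500 to 47490 against 35570 to 40350. Npy averaged 6945 against 3499, Slc32a1 2465 against 1043 and Sst 8431 against 7430. Gad1 averaged 10110 against 9791, and Cck was lower, at 8985 against 10040. Npy, Sst, Vip and Cck are also among the peptide precursors given below, so the rise of Npy enters both lists. Pan-neuronal markers gave 0 calls in 8 genes, at a median log2 difference of -0.21. The part of these shifts in the rise of Chga, Vgf and Pcsk1 was not tested. In such bulk RNA, fewer cells of a type and less RNA per cell cannot be told apart.

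At 1 week off dox, when the mice were 3 weeks old, Pcsk1 was the member with the largest difference, and no member passed the test. By the same rule 0 of the 9 members were higher and 0 lower, where 0.218% of all tested probe sets were higher and 0.0185% lower. At an unadjusted p under 0.05, 1 of the 9 members and 1424 of all tested probe sets (5.27%) differed. Pcsk1 had 288 and 324 in the VP16-CREB pools, against 88.3 and 133 in the littermates. Both transgenic pools were more than double either control. The log2 difference was 1.41 ± 0.34 (SE, 95% interval 0.69 to 2.14, limma adjusted p = 0.16), with an adjusted p of 0.0687 to 0.624 over 15 alternatives.

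Chga had 1254 and 1365 in the VP16-CREB pools at 1 week, against 1129 and 978 in the littermates, and Vgf had 2457 and 2941 in the VP16-CREB pools, against 2363 and 2003 in the littermates. Neither gene overlapped between the groups, at log2 differences of 0.31 (95% interval -0.13 to 0.76) and 0.30 (-0.23 to 0.84), both with a limma adjusted p of 1. With Pcsk1 and Cpe (0.25, -0.36 to 0.86), 4 of the 9 members had transgenic pools wholly above their littermates, where 15.7% of all tested probe sets did, and 0 wholly below, where 12.9% did. Of the marker lists, Cd68 of the microglia and Gfap of the astrocytes passed the test at this time. Microglial sums were 22670 to 25710 in the VP16-CREB pools, against 12060 to 16950 in the littermates. Astrocyte sums were 47960 to 59460 against 42610 to 42950, and interneuron sums 33760 to 35290 against 31160 to 33090. Of the interneuron genes, Npy averaged 4258 against 2731 and Sst 4263 against 5328. Dentate granule sums were lower, 9783 to 9849 against 12040 to 14170, as were pyramidal sums, 17050 to 19420 against 21140 to 24980. Pan-neuronal sums overlapped. The part of these shifts in Pcsk1 was not tested.

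The effects at the 2 times were compared directly, as the difference at 3 weeks minus that at 1 week. For Chga it was 0.61 (95% interval 0.03 to 1.18, unadjusted p = 0.0404, limma adjusted p = 0.962) and for Vgf 0.60 (-0.08 to 1.29). For Pcsk1 it was -0.15 (-1.08 to 0.78). By adjusted p, 0 of the 9 members differed, where 0.0037% of all tested probe sets did, and at an unadjusted p under 0.05 it was 1 of 9 and 1349 of all (4.99%). Between the times, Chga averaged 2117 ± 131 at 3 weeks and 1310 ± 78.2 at 1 week in VP16-CREB (SD, n = 3 and 2), and Pcsk1 averaged 291.5 ± 24.9 at 3 weeks and 306.2 ± 25.1 at 1 week.

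A-CREB hippocampus showed no member that passed the test. Among all 27044 probe sets, 0% were called by limma at an adjusted p under 0.05, so the count of 0 of 9 is also the background. At an unadjusted p under 0.05 it was 0 members and 1171 of all tested probe sets (4.33%). Scg2 had 4874, 4753 and 4797 in the A-CREB pools, against 5859, 5291 and 5089 in the littermates. It was the member whose groups did not overlap, with a log2 difference of -0.17 (95% interval -0.45 to 0.11, limma adjusted p = 1), where 3.28% of all tested probe sets lay wholly below, and 0 members lay wholly above, where 3.54% did.

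Chga had 941, 922 and 1028 in the A-CREB pools, against 1040, 961 and 1503 in the littermates, and Vgf had 2499, 1849 and 1656 in the A-CREB pools, against 2052, 2106 and 3195 in the littermates. The third control pool was the highest in both genes and the groups overlapped. Their log2 differences were -0.25 (95% interval -0.61 to 0.12) and -0.28 (-0.72 to 0.15). Pcsk1 had 150, 204 and 110 in the A-CREB pools, against 141, 214 and 103 in the littermates, with a log2 difference of 0.03 (-0.56 to 0.62).

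In this cohort the second pool of each group held the most Pcsk1 and also the most pituitary hormone transcript. Gh, growth hormone, was 137, 448 and 445 in the A-CREB pools, against 110, 2030 and 271 in the littermates. Cga, the shared alpha subunit of pituitary glycoprotein hormones, was 2.82, 74.4 and 11.2 in the A-CREB pools, against 4.59, 141.8 and 3.03 in the littermates. The summed pituitary and adrenal list was 615.4 to 1207 in A-CREB pools and 375.8 to 4460 in their littermates. Without both second pools the log2 difference of Pcsk1 was 0.08 and no member passed the test. At 3 weeks off dox Cga was 4.61 to 9.18 in the VP16-CREB pools and 3.86 to 7.52 in the littermates, and Gh was 46.3 to 51.5 in the VP16-CREB pools and 36.2 to 101 in the littermates. At 1 week Gh was 301.9 and 307.2 in the VP16-CREB pools, against 109.2 and 312.2 in the littermates. Prl, prolactin, was 261.2 and 253.8 in the VP16-CREB pools, against 25.6 and 433.7 in the littermates. The littermate pool lower in Gh and Prl also had less Pcsk1, 88.3 against 132.7 in the other. The part of pituitary RNA in the levels of Pcsk1 was not tested further.

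The contrast of the VP16-CREB effect at 3 weeks with the A-CREB effect, each against its own littermates, was called for Chga alone among the 9 members. By this rule 0.828% of all tested probe sets were higher and 0.0592% lower (0.887% in either direction). The contrast was 1.17 ± 0.24 for Chga (SE, 95% interval 0.65 to 1.69, limma adjusted p = 0.0384), 1.19 for Vgf (0.57 to 1.81, adjusted p = 0.0846) and 1.23 for Pcsk1 (0.40 to 2.07, adjusted p = 0.243). The contrast on Chga lost its call on leaving out any 1 of the 6 arrays of the 3-week cohort (adjusted p 0.0565 to 0.116) or any 1 A-CREB pool (0.0657 to 0.0848), with values of 1.07 to 1.24. Without the first A-CREB pool Vgf was called in place of Chga (contrast 1.36, limma adjusted p = 0.048).

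**Figure D3:**
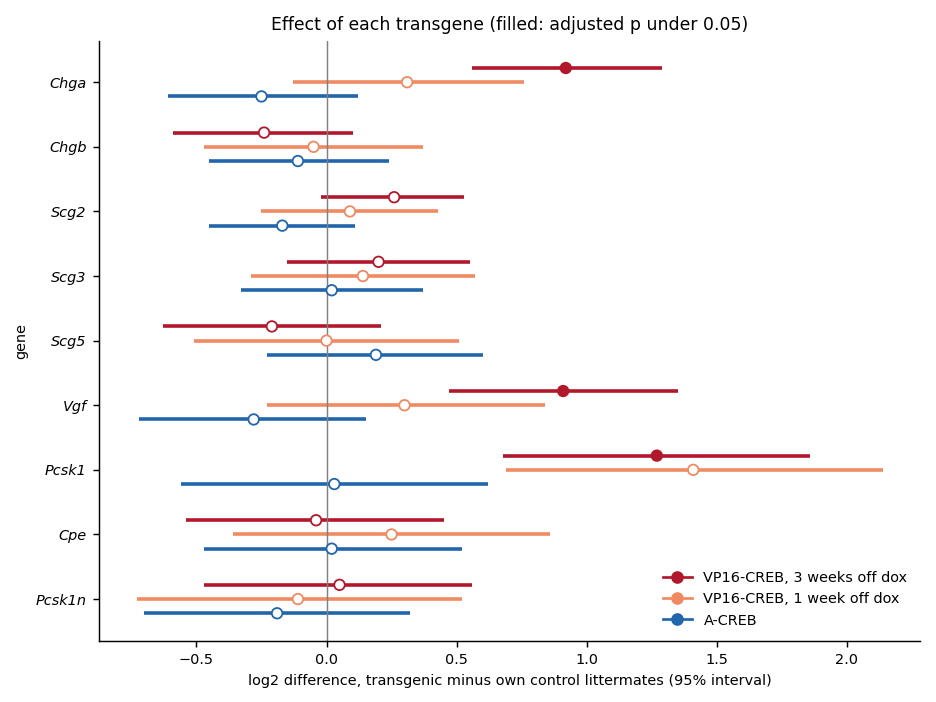
Log2 differences of the 9 tested genes, transgenic minus own control littermates, with 95% intervals, for VP16-CREB at 3 weeks, VP16-CREB at 1 week and A-CREB. Filled points passed the test, which are Chga, Vgf and Pcsk1 at 3 weeks, and the interval of Pcsk1 at 1 week (0.69 to 2.14) lies above 0 without a call.

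These levels are intensities across cohorts, of which that at 3 weeks had higher array medians, so their order is a description. Among the 6 groups, Chga, Vgf and Scg2 were highest in VP16-CREB at 3 weeks, at 2117, 4358 and 6593, and its pools did not overlap those of the next group. The next groups overlapped each other in turn down to the lowest, which was A-CREB for each. Pcsk1 was highest in VP16-CREB at 1 week and next at 3 weeks, which overlapped, and both lay above A-CREB, the third at 154.5. Pcsk1n split by cohort rather than by transgene: it averaged 6467 and 6156 in VP16-CREB and littermates at 3 weeks and no more than 3966 in any other group. Scg3 ran the other way, with its 2 lowest means, 7751 in VP16-CREB and 6738 in littermates, in that same cohort.

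Log2 values, each minus the mean of its cohort's littermate arrays, were used to find the genes most alike over the 16 arrays. Chga and Vgf correlated at r = 0.93, the highest among the members. The pools of VP16-CREB at 3 weeks were high in both, and over the 11 arrays without VP16-CREB r was 0.676. The nearest non-members were Etv6, a transcriptional repressor (r = 0.954), and Nbl1, a secreted antagonist of bone morphogenetic proteins (0.949), for Chga. For Vgf they were Tgfb1, transforming growth factor beta 1 (0.973), and Slc38a10, a member of an amino acid transporter family (0.952). For Pcsk1 they were the raised Creb1 probe set (0.960) and Fyb, an adaptor protein of T cells and myeloid cells (0.955). Without the VP16-CREB arrays these r values were 0.787 to 0.929. The genes were picked for the highest r over all 16 arrays, which include these 11. High values there are therefore partly fixed by that choice and are no separate check. The Creb1 probe set had intensities of only 5.38 to 85.1 on these 11 arrays, below the overall median used by the filter. Its r of 0.807 there is thus between low values. The points share arrays, scaling and the transgene contrast, and r is given as a description.

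**Figure D4:**
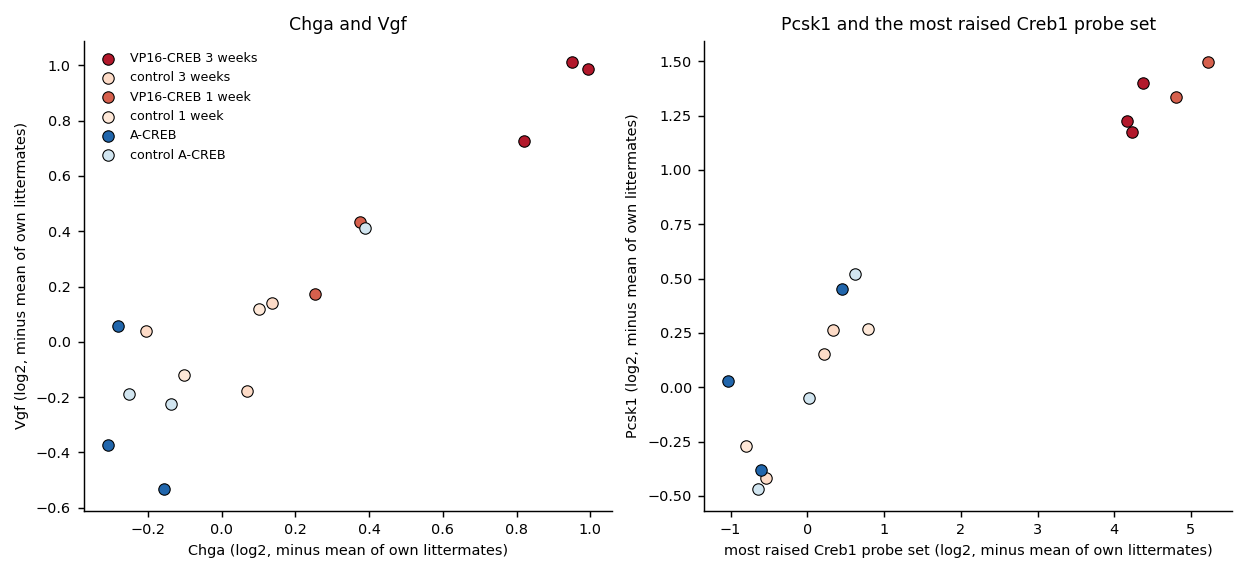
Left, Vgf against Chga, and right, Pcsk1 against the most raised Creb1 probe set, each as log2 value minus the mean of the cohort's littermate arrays, with 1 point per array. The VP16-CREB pools at 3 weeks lie at the upper right of both panels, and on the right the VP16-CREB pools at 1 week lie with them.

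Of 13 other processing enzymes, 12 were tested and 2 were higher in VP16-CREB at 3 weeks, with 0 lower and a median log2 difference of 0.21, where 3.28% of all tested probe sets were higher and 0.651% lower, at a median of -0.01. Ctsl, cathepsin L, a lysosomal protease that also cuts some neuropeptide precursors, averaged 8492 ± 809 in VP16-CREB and 3847 ± 356 in littermates (SD, n = 3 each), a log2 difference of 1.14 (limma adjusted p = 0.000653). Pcsk6, a convertase of the constitutive pathway, averaged 547.9 ± 39.9 in VP16-CREB and 326.4 ± 21.8 in littermates (SD, n = 3 each, log2 difference 0.73, limma adjusted p = 0.0421). None of the 12 was called in A-CREB or at 1 week, where Ctsl differed by 0.19 and 0.37 and Cpd, a carboxypeptidase of the Golgi, by 0.00 and -0.23.

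Of 20 genes of the dense-core vesicle machinery, 19 were tested, and 1 was higher and 1 lower at 3 weeks, at a median of 0.00, beside the same shares of 3.28% and 0.651% over all tested probe sets. Resp18, a protein of the endocrine secretory pathway, averaged 3997 ± 101 in VP16-CREB and 2643 ± 285 in littermates (SD, n = 3 each), a difference of 0.60 (limma adjusted p = 0.0316). Ptprn2, a transmembrane protein of the vesicle, averaged 3269 ± 495 in VP16-CREB and 6443 ± 1290 in littermates (SD, n = 3 each, log2 difference -0.97, limma adjusted p = 0.00988). None was called in A-CREB or at 1 week, where Rab3a, a vesicle GTPase, differed by 0.07 and 0.10 and Atp6ap2, an accessory subunit of the vesicle proton pump, by 0.21 and 0.17.

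Of 20 peptide precursors, 19 were tested and 4 were higher at 3 weeks, with 0 lower and a median of 0.26, again where 3.28% of all tested probe sets were higher and 0.651% lower. Pdyn, the precursor of dynorphin peptides, averaged 1156 ± 113 in VP16-CREB and 133.8 ± 23.7 in littermates (SD, n = 3 each), a log2 difference of 3.03 (limma adjusted p = 1.43e-06). Gal, the galanin precursor, differed by 1.28 (0.0424), Bdnf by 1.11 (0.0432) and Npy by 1.00 (0.0136, all limma adjusted p). Gal was dim, at 104.5 to 221.4 in the VP16-CREB pools and 51.8 to 92.2 in the littermates. Its highest intensity in any other group was 104.3, in an A-CREB control pool. It thus passed the filter, at an overall median of 99.1, only through the group in which it was high. Its place among the 4 is therefore no separate support. At 1 week, where 0.218% of all tested probe sets were higher, Pdyn was the 1 gene of the 19 called, at 985.9 ± 237 in VP16-CREB and 139.4 ± 26.5 in littermates (SD, n = 2 each, log2 difference 2.73, limma adjusted p = 0.000138). In A-CREB none was called, and Cck and Sst, the precursors of highest mean, differed by -0.20 and -0.08. Pdyn averaged 87.1 ± 14.5 in A-CREB and 126.5 ± 12.9 in littermates (SD, n = 3 each, log2 difference -0.50, unadjusted p = 0.0188, limma adjusted p = 1). The contrast of VP16-CREB at 3 weeks with A-CREB was 3.53 for Pdyn (limma adjusted p = 5.07e-05).

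**Figure D5:**
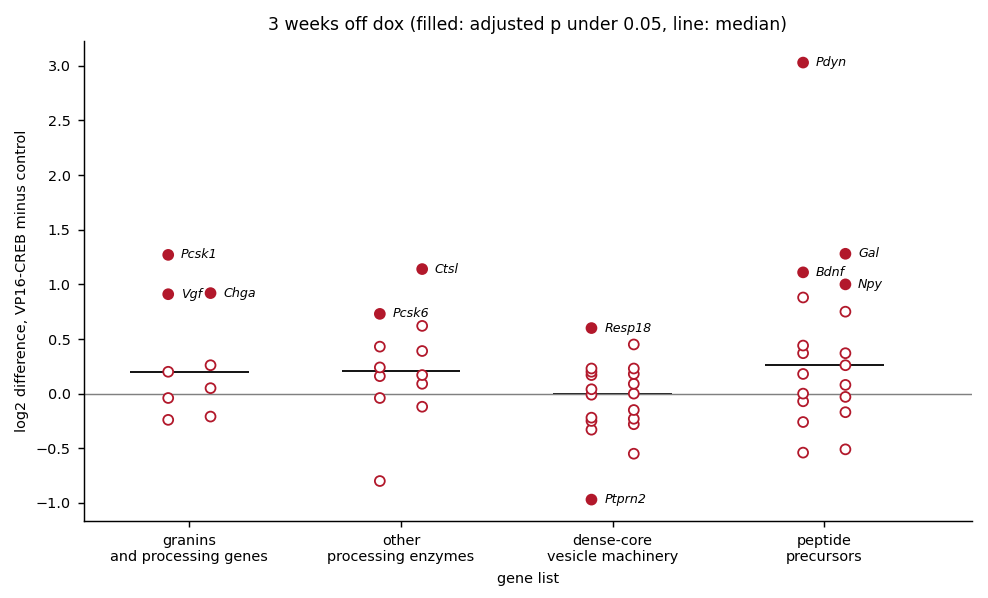
Log2 differences of VP16-CREB minus control littermates at 3 weeks off dox for the tested genes of 4 lists. Each point is a gene, filled where the adjusted p was under 0.05, and lines are medians, from 0.00 for the dense-core vesicle machinery to 0.26 for the peptide precursors.

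Genes with the full site TGACGTCA in their promoter window were called higher at 3 weeks in 13 of 364 tested (3.57%), and those with the half-site TGACG in 136 of 3593 (3.79%), where all 10281 tested genes with a window gave 4.51%. Called lower were 0 of the 364, 9 of the 3593 (0.25%) and 84 of the 10281 (0.817%), and the median log2 differences were 0.07, 0.02 and 0.00. Of the 3 tested members found with the full site, Pcsk1 was called higher, while Scg2 (0.26) and Chgb (-0.24) did not pass the test. Vgf and Cpe were not searched for it.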

How the data were processed

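The deposited values were intensities on a linear scale, which the authors had computed in MAS5 (version not given), per the submitters' processing notes. The members and lists were chosen with earlier results of these data known. Values were taken as log2(intensity + 10), and probe sets above the overall median of 99.1 on at least 2 arrays were kept (27044 of 45101, without 64 control probe sets). All 16 arrays entered 1 model with a coefficient per group (limma 3.58.1, R 4.3.3, lmFit and eBayes, 10 residual and 3.44 prior degrees of freedom), and Benjamini-Hochberg adjustment covered all tested probe sets. The call threshold was an adjusted p of 0.05. Named were every member probe set, for each called member the 2 genes of highest Pearson r, and from the lists every called gene, or the 2 of highest mean. A gene with several probe sets on the lists was represented by that of highest mean. The alternatives were pseudocounts, filters, normalization, variance models, array weights, a replicate block and omitted arrays. Figures used matplotlib 3.10.9. For arrays, their number limits the precision.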

Additional observations from a re-analysis of the deposited data

Results flagged for a closer look

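The effect of VP16-CREB at 3 weeks on Chga differed from that of A-CREB by 1.17 on the log2 scale, by the test of the difference itself (limma adjusted p = 0.0384). Of the 26 alternative settings, 16 did not give the call on Chga, with values of 0.98 to 1.30 throughout.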

How the results depend on the processing

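Counts of members called were 0 in every alternative for VP16-CREB at 1 week (15 settings), A-CREB (19) and the 3-week minus 1-week contrast (22). For VP16-CREB at 3 weeks the count was 3, and 1 to 4 in 18 settings, of which 8 left it at 3. It was 1 to 2 with each array left out, 1 without the third VP16-CREB pool, and 1 without the first VP16-CREB and second control pool together, a setting chosen after seeing the data. With array weights it was 4, with Scg2 added (adjusted p = 0.0458). The VP16-CREB minus A-CREB contrast called 1 member. It called 2 with 1 probe set per gene and with trend and robust variances. It called 0 with arrays centred on their median, no filter, only the arrays compared, the 2 arrays of the 3-week cohort left out, and both second pools of the A-CREB cohort left out (also chosen after seeing the data), and 0 to 1 with each array left out. Vgf passed in this contrast in 4 of the 26 settings: 1 probe set per gene (adjusted p = 0.0393), trend and robust variances (0.0371), and without the first A-CREB pool (0.048) or both first pools of that cohort (0.0432), where Chga did not pass. The causes were not tested.

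Not every same-numbered pair of pools correlated above 0.1 within the cohorts of 3 pools, so the block was kept as an alternative: same-numbered pools correlated at -0.16, -0.23 and 0.22 in the 3-week cohort, 0.15 and 0.15 in the 1-week cohort, and -0.05, 0.41 and 0.27 in the A-CREB cohort. In the A-CREB cohort same-numbered pools also shared low Xist (first pools) and the highest Prl and Cga of their group (second pools). With the replicate number as a block, 2 members were called at 3 weeks (Vgf adjusted p = 0.102) and 0 in the contrast with A-CREB (Chga adjusted p = 0.102). Over all probe sets, calls were 1062 at 3 weeks (573 to 4137 over the alternatives), 64 at 1 week (0 to 70), 0 for A-CREB (0 to 4), 1 for the contrast of times (0 to 23) and 240 for the contrast of transgenes (114 to 404). At 1 week a lone pool left in a group was assumed to vary like the others.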
